A study of Mus musculus with 20 samples.

Results

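The clock genes described here are 31 genes of the mammalian circadian oscillator and its direct outputs, taken by name from a list and not by their values. All 31 were present among the 16115 genes of the expression table, and every one of them was tested. RNA-seq was run on livers of male mice from 5 groups. Mice of wild type genotype were untreated (4 libraries used). Mice labelled d2-/-, a loss of the Fanconi anemia DNA repair gene Fancd2, were untreated (3 libraries), given metformin (3), given oxymetholone (5) or given both (3). All livers were collected after 18 months of treatment, or of none. Metformin is a glucose-lowering biguanide, and oxymetholone is an anabolic androgen. Of 20 labelled samples, 18 were analysed here, which leaves out replicate 1 of the untreated mutants and replicate 2 of the metformin group. The labels give neither the mice's age nor the hour of collection, and the level of Fancd2 itself was not analysed here.

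In the liver clock, CLOCK or NPAS2 pairs with BMAL1, encoded by Arntl, and the pair binds E-box DNA elements to switch on the Per, Cry, Nr1d1, Nr1d2 and Dbp genes. PER and CRY proteins then block that pair. REV-ERB proteins, made by Nr1d1 and Nr1d2, compete with ROR proteins for another element and repress Arntl, Npas2, Nfil3 and Cry1, while DBP, TEF and HLF activate and NFIL3 represses through the D-box, a further element. In mouse liver these transcripts are known to peak in sequence over the day, Arntl and Npas2 near the end of the night, Nr1d1 around midday, Dbp and Per3 later in the day, Per1 and Per2 near dusk and Cry1 late in the night. Liver transcripts of this set therefore depend on the hour of collection as a matter of background. Because the labels give no hour for any mouse, drug treatment and hour of collection cannot be told apart in what follows, and the part of either was not tested.

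Promoter windows are shown first because the arms by which the genes are ordered are named after the elements above. Genes were placed in an arm by role and not by the motifs found, and several lack their arm's motif in these windows. Windows of 250 bases before a transcript start came from RefSeq on GRCm38.p6, an older build than the GRCm39 of the counts, and 26 of the 31 genes had at least 1 entry, with 35 windows between them. Motifs were searched on both strands. The E-box, CACGTG, stood in 9 of the 35 windows, from 8 genes (Bhlhe41, Ciart, Cipc, Coq10b, Cry1, Lonrf3, Per1 and Tef), and in 6.02% of all 32851 windows. The related sequence CACGTT stood in 3 windows (Cry1, Cry2 and Nr1d1) and in 3.85% of all. The D-box, TTANGTAA, stood in 3 windows (Coq10b, Per3 and Timeless) and in 2.06% of all. The ROR and REV-ERB element, TAGGTCA or TGGGTCA, stood in 1 window (Nfil3) and in 5.38% of all, and the cyclic AMP element, TGACGTCA, in 1 window (Hlf) and in 1.55% of all. None of these motifs overlaps another in the windows printed. A match describes the letters only. The 5 windows printed here were chosen to show the E-box repeats of Ciart, the paired D-boxes of Per3, both elements together in Coq10b, an E-box beside a CACGTT in Cry1, and the ROR element of Nfil3. Each runs 5′ to 3′ and ends at the base before the transcript start, and the capitals mark the motifs, which read as their reverse complement where they lie on the other strand. Ciart is chr3:95882229-95882478 on the minus strand, Per3 chr4:151044666-151044915 minus, Coq10b chr1:55052520-55052769 plus, Cry1 chr10:85185055-85185304 minus and Nfil3 chr13:52981040-52981289 minus.
Ciart: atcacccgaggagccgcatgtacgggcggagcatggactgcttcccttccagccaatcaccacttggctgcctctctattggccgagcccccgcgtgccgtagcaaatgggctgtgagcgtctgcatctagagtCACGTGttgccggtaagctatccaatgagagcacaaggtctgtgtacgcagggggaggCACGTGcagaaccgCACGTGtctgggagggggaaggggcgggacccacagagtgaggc
Per3: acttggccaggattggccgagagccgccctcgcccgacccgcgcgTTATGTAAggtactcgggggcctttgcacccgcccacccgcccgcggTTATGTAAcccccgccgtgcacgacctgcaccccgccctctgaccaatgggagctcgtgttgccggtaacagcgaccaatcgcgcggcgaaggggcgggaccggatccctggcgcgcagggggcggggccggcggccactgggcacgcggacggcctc
Coq10b: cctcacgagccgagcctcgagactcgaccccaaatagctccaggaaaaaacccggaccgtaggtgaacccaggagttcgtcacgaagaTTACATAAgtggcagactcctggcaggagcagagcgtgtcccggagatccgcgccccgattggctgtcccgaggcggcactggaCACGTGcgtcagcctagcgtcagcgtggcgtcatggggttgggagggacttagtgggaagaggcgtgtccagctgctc
Cry1: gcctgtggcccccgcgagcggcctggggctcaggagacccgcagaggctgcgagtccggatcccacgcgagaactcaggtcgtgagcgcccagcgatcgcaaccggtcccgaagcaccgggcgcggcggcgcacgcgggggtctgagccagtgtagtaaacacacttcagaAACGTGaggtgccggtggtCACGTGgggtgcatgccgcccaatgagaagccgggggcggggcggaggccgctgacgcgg
Nfil3: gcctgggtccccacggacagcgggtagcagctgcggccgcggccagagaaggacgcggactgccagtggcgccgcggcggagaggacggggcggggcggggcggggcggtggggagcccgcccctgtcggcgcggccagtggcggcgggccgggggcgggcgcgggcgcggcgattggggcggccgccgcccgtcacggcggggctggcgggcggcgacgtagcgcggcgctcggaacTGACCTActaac

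The E-boxes of Ciart span bases -116 to -111, -58 to -53 and -44 to -39 from the transcript start. In Per3 the D-boxes span -205 to -198 and -158 to -151. Coq10b holds its D-box at -162 to -155 and its E-box at -78 to -73. Cry1 holds CACGTT, read on the other strand, at -79 to -74 and its E-box at -60 to -55. The ROR element of Nfil3 lies at -12 to -6, on the other strand.

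Total counts were 20.2 to 32.7 M per library. Levels are given as CPM, counts relative to library size, after TMM scaling, a per-library correction for composition, and replicates are always listed in the order 1 to 4 for wild type, 2 to 4 for untreated mutants, 1, 3 and 4 for metformin, 1 to 5 for oxymetholone and 1 to 3 for both drugs. Nothing in the labels says more of how the samples were taken, so p-values measure the spread between these samples. CPM is not corrected for transcript length, so levels are compared between libraries and not between genes. Of 10 hepatocyte markers 9 were in the table, none at 0 in any group, and their summed level was 38527 to 89610 CPM per library. The summed level of 9 bile duct markers was 1474 CPM in untreated mutant 2, 707 in metformin 3 and 689 in combination 3, against group medians of 70.1 to 277 CPM. Combination 3 also had the highest summed stellate and fibroblast level, 778 CPM over 10 of 10 markers, and the highest macrophage level, 500.4 CPM over 8 of 8. In whole liver, fewer cells of a type and less RNA per cell cannot be told apart.

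No clock gene passed an adjusted p of 0.05 in any of the 7 comparisons by edgeR's quasi-likelihood test, or by limma-voom. None passed in the 7 comparisons of the authors' deposited table either. The authors' set held both drugs against oxymetholone in place of oxymetholone against wild type. In it 47 of all 16115 genes passed with oxymetholone and 0 in each other comparison. In the fitted levels of each drug group, at least 13 of the 14 genes of the E-box and D-box arm were higher than in untreated mutants, and Arntl, Npas2 and Nfil3 were lower. With oxymetholone, 13 of 31 genes were higher at an unadjusted p under 0.05, against 2.77% of all genes, and 3 were lower, against 2.03%. Usp2, Ciart, Noct, Dbp and Wee1 had the largest of these differences. DESeq2 called 5 genes in the oxymetholone comparison at an adjusted p of 0.05 (Usp2, Ciart, Wee1, Noct and Bhlhe40), 2 in the combination comparison (Usp2 and Wee1) and 1 between oxymetholone-treated mutants and wild type (Usp2). The share of all genes that DESeq2 called is not given here, so these counts have no background to be read against. The untreated mutants enter the genotype comparison and all 3 drug comparisons, so those comparisons share 3 libraries and their results are not independent.

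Arntl, the gene of BMAL1, is the non-redundant activator of the loop. Arntl was 8.33, 3.35, 9.85 and 11.6 CPM in wild type, 13.7, 10.1 and 3.45 in untreated mutants, 1.79, 6.64 and 2.40 with metformin, 2.88, 2.11, 2.19, 4.06 and 2.06 with oxymetholone, and 4.56, 0.561 and 7.45 with both drugs. It was high in 3 of 4 wild types and 2 of 3 untreated mutants, and its range with oxymetholone overlapped the untreated mutants only at untreated mutant 4. The log2 difference with oxymetholone was -1.77 ± 0.61 (SE, edgeR adjusted p = 0.854), and against wild type it was -1.64 ± 0.58 (SE, edgeR adjusted p = 0.731).

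Npas2 encodes the partner of BMAL1 that can replace CLOCK. Npas2 was 1.89, 0.463, 1.97 and 3.66 CPM in wild type, 4.23, 1.20 and 0.403 in untreated mutants, 0.316, 2.08 and 0.782 with metformin, 0.681, 0.742, 0.286, 0.203 and 0.190 with oxymetholone, and 0.297, 0.102 and 2.77 with both drugs. The highest values belonged to untreated mutant 2, wild type 4, combination 3 and metformin 3, and groups overlapped throughout. With oxymetholone the log2 difference from untreated mutants was -2.21 ± 0.92 (SE, edgeR adjusted p = 0.877). Without untreated mutant 2 it was -0.91. Against wild type the difference was -2.24 ± 0.87 (SE, edgeR adjusted p = 0.869).

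Clock, whose product is the usual partner of BMAL1, was highest on average in wild type. Clock was 28.4, 28.6, 26.2 and 38.3 CPM in wild type, 25.2, 18.7 and 18.8 in untreated mutants, 17.1, 31.5 and 16.9 with metformin, 24.1, 13.9, 25.5, 20.04 and 14.7 with oxymetholone, and 24.7, 10.5 and 20.2 with both drugs. The 4 wild types lay above all untreated mutants and above all oxymetholone-treated livers. Between oxymetholone and wild type the log2 difference was -0.63 ± 0.27 (SE, edgeR adjusted p = 1).

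Nfil3 encodes the D-box repressor, and the ROR element of its promoter is shown above. Nfil3 was 34.5, 12.9, 43.6 and 47.0 CPM in wild type, 52.1, 47.4 and 24.3 in untreated mutants, 15.8, 24.1 and 15.8 with metformin, 20.9, 17.6, 22.4, 39.4 and 20.8 with oxymetholone, and 26.7, 26.8 and 24.2 with both drugs. All 3 metformin-treated livers lay below all 3 untreated mutants, and wild type 2 was the lowest of the 18. Nfil3 differed from untreated mutants on the log2 scale by -1.15 ± 0.41 (SE, edgeR adjusted p = 0.661) with metformin and -0.77 ± 0.35 (SE, edgeR adjusted p = 0.877) with oxymetholone.

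Cry1 is a repressor with the latest peak of the loop. Cry1 was 14.3, 4.24, 12.6 and 14.9 CPM in wild type, 10.7, 9.68 and 5.80 in untreated mutants, 6.10, 5.78 and 3.82 with metformin, 3.52, 3.15, 3.43, 11.1 and 15.98 with oxymetholone, and 3.67, 12.1 and 16.3 with both drugs. Oxymetholone 4 and 5 and combination 2 and 3 stood at 11.1 CPM or more, and the other 7 treated livers at 3.15 to 6.10. No comparison of Cry1 had an unadjusted p under 0.05.

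The plot of 10 clock genes by library shows these 5 groups side by side.

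**Figure D1:**
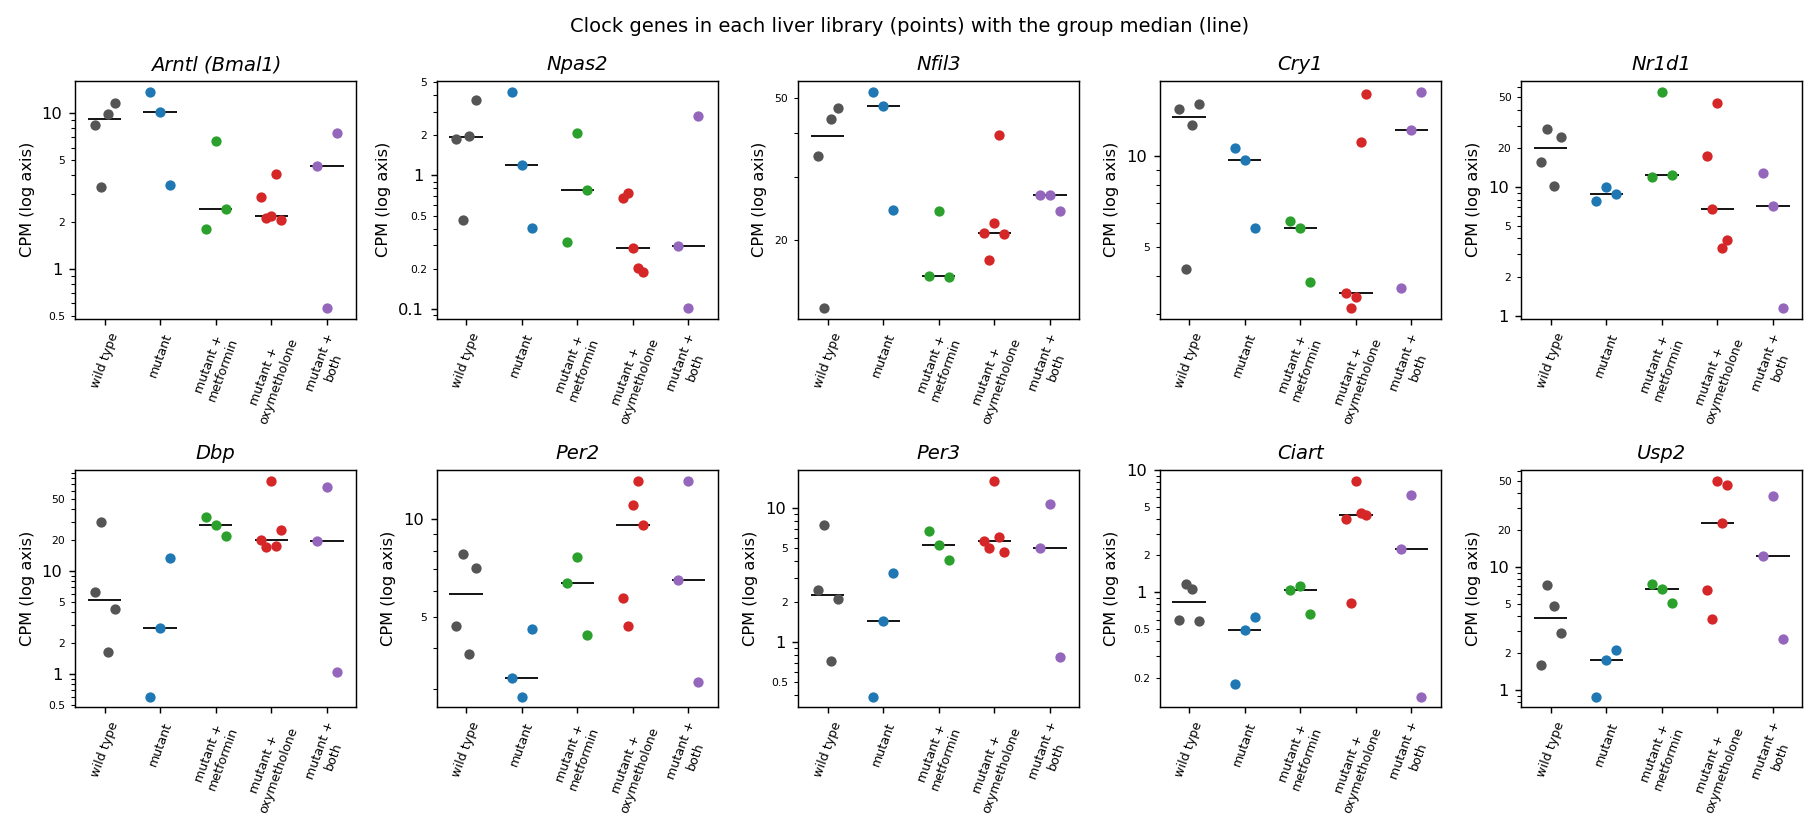
CPM on a log axis of Arntl, Npas2, Nfil3, Cry1, Nr1d1, Dbp, Per2, Per3, Ciart and Usp2 in the 18 liver libraries, 1 point per library, coloured by group, with the group median as a line. Dbp lies between 17.0 and 75.4 CPM in the 5 oxymetholone-treated livers and at 13.2 or below in the 3 untreated mutants, while wild type 2 stands alone at 30.1.

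Dbp, a D-box activator and a direct E-box target, had the widest range of all 31 genes, 125-fold from lowest to highest. Dbp was 6.21, 30.1, 1.65 and 4.32 CPM in wild type, 0.604, 2.79 and 13.2 in untreated mutants, 33.3, 27.8 and 21.8 with metformin, 19.99, 17.0, 75.4, 17.3 and 24.97 with oxymetholone, and 19.7, 65.6 and 1.03 with both drugs. Every metformin-treated and every oxymetholone-treated liver lay above every untreated mutant, and wild type 2 lay among the treated livers while combination 3 lay among the lowest of the untreated. The log2 difference with oxymetholone was 2.48 ± 1.15 (SE, edgeR adjusted p = 0.877), and it was 4.22 without untreated mutant 4 and 1.83 without oxymetholone 3. Dbp shares 18.0% of its exon bases with Sphk2 on the opposite strand, and the strand setting of the counts is not given in the sources used here. Sphk2 ranged from 7.45 to 34.5 CPM, with its highest value in oxymetholone 3, and its part in the Dbp counts was not tested.

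Tef and Hlf encode the other 2 activators of the D-box family. Tef was 26.9, 59.6, 23.0 and 36.2 CPM in wild type, 14.9, 25.3 and 43.2 in untreated mutants, 65.5, 55.9 and 39.5 with metformin, 49.3, 38.3, 121, 68.9 and 75.3 with oxymetholone, and 66.1, 103 and 8.23 with both drugs. Tef was highest in oxymetholone 3 and combination 2 and lowest in combination 3. Its log2 difference with oxymetholone was 1.34 ± 0.60 (SE, edgeR adjusted p = 0.877). Hlf was 20.3, 23.6, 24.4 and 35.5 CPM in wild type, 20.1, 17.4 and 16.5 in untreated mutants, 22.3, 28.6 and 12.4 with metformin, 19.3, 13.9, 38.0, 27.1 and 27.8 with oxymetholone, and 28.3, 30.8 and 5.27 with both drugs. All 3 untreated mutants were below all 4 wild types in Hlf, and no comparison of Hlf had an unadjusted p under 0.05.

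Per1, Per2 and Per3 encode the PERIOD repressors, of which PER1 and PER2 carry the feedback. Per1 was 3.87, 6.27, 6.88 and 5.70 CPM in wild type, 1.53, 1.15 and 4.22 in untreated mutants, 9.53, 4.52 and 4.14 with metformin, 4.49, 3.04, 7.48, 12.3 and 9.18 with oxymetholone, and 9.76, 10.7 and 2.99 with both drugs. Untreated mutants 2 and 3 were the lowest of the 18 in Per1, and untreated mutant 4 lay within the wild-type range. The log2 difference of untreated mutants from wild type was -1.30 ± 0.56 (SE, edgeR adjusted p = 0.973), and it was -2.08 without untreated mutant 4. From untreated mutants it was 1.66 ± 0.55 (SE, edgeR adjusted p = 0.754) with oxymetholone, 1.38 ± 0.59 (SE, edgeR adjusted p = 0.815) with metformin and 1.75 ± 0.59 (SE, edgeR adjusted p = 0.803) with both. The metformin value was 0.90 without metformin 1 and 2.16 without untreated mutant 4.

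Per2 was 4.70, 7.83, 3.83 and 7.05 CPM in wild type, 3.23, 2.84 and 4.58 in untreated mutants, 6.37, 7.66 and 4.40 with metformin, 5.73, 4.67, 11.1, 13.1 and 9.62 with oxymetholone, and 6.49, 13.2 and 3.15 with both drugs. Every oxymetholone-treated liver lay above every untreated mutant in Per2, although oxymetholone 2, at 4.67 CPM, lay next to untreated mutant 4, at 4.58. The log2 difference was 1.31 ± 0.44 (SE, edgeR adjusted p = 0.793) with oxymetholone and 1.09 ± 0.48 (SE, edgeR adjusted p = 0.881) with both drugs, where it was 0.43 without combination 2. Per3 was 2.44, 7.48, 0.716 and 2.08 CPM in wild type, 0.391, 1.42 and 3.30 in untreated mutants, 6.79, 5.35 and 4.11 with metformin, 5.69, 5.04, 16.1, 6.04 and 4.71 with oxymetholone, and 5.05, 10.7 and 0.776 with both drugs. The metformin and oxymetholone groups both lay above all untreated mutants in Per3, whose promoter carries the D-boxes shown above. With oxymetholone its log2 difference was 2.13 ± 0.84 (SE, edgeR adjusted p = 0.877).

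Cry2 encodes the other CRY repressor. Cry2 was 10.8, 15.9, 10.6 and 13.9 CPM in wild type, 9.52, 7.44 and 6.09 in untreated mutants, 7.95, 18.2 and 8.43 with metformin, 10.2, 6.42, 30.2, 16.6 and 14.7 with oxymetholone, and 12.6, 9.07 and 4.94 with both drugs. Oxymetholone 3 had the highest Cry2 level and combination 3 the lowest, and all 3 untreated mutants were below all 4 wild types. The log2 difference with oxymetholone was 1.02 ± 0.44 (SE, edgeR adjusted p = 0.877), and 0.64 without oxymetholone 3.

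Nr1d1, the gene of REV-ERBα, set the libraries in another order than Dbp. Nr1d1 was 15.7, 28.1, 10.3 and 24.7 CPM in wild type, 7.78, 10.01 and 8.88 in untreated mutants, 11.9, 55.1 and 12.5 with metformin, 17.5, 6.75, 45.0, 3.37 and 3.85 with oxymetholone, and 12.8, 7.19 and 1.15 with both drugs. Metformin 3 and oxymetholone 3 were the highest, and combination 3 and oxymetholone 4 and 5 the lowest. The untreated mutants all lay below the wild types and below the metformin-treated livers, and the oxymetholone group spanned both. No comparison between 2 groups had an unadjusted p under 0.05 for Nr1d1. Its exons share 8.55% of their bases with Thra on the opposite strand, which ranged from 3.62 to 14.6 CPM and was highest in metformin 3, and the part of Thra in the Nr1d1 counts was not tested. Nr1d2 was 107, 107, 47.9 and 65.9 CPM in wild type, 30.0, 76.8 and 119 in untreated mutants, 119, 74.6 and 96.2 with metformin, 151, 136, 56.5, 85.9 and 62.3 with oxymetholone, and 102, 173 and 21.7 with both drugs. Nr1d2, the gene of REV-ERBβ, overlapped between all groups, with combination 2 highest and combination 3 lowest.

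Ciart encodes CHRONO, a repressor of the BMAL1 pair, and its promoter holds the E-boxes printed above. Ciart was 0.598, 1.17, 1.07 and 0.578 CPM in wild type, 0.178, 0.492 and 0.624 in untreated mutants, 1.05, 1.12 and 0.666 with metformin, 3.96, 0.816, 8.19, 4.46 and 4.28 with oxymetholone, and 2.28, 6.22 and 0.141 with both drugs. All 5 oxymetholone-treated livers exceeded all 3 untreated mutants, 4 of them at 3.96 CPM or more, and wild type and metformin never exceeded 1.17. The log2 difference was 3.33 ± 0.91 (SE, edgeR adjusted p = 0.461) with oxymetholone, 2.72 ± 0.94 (SE, edgeR adjusted p = 0.806) with both drugs, where it was 1.44 without combination 2, and 2.33 ± 0.75 (SE, edgeR adjusted p = 0.615) between oxymetholone and wild type.

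Usp2 encodes a ubiquitin-specific protease that acts on clock proteins. Usp2 was 1.61, 7.19, 4.80 and 2.89 CPM in wild type, 0.888, 1.75 and 2.13 in untreated mutants, 7.32, 6.60 and 5.07 with metformin, 6.57, 3.82, 50.6, 23.0 and 46.8 with oxymetholone, and 12.2, 38.1 and 2.61 with both drugs. Oxymetholone 3 and 5 and combination 2 stood at 38.1 CPM or more, and every treated liver of any drug group exceeded every untreated mutant. Wild types overlapped the metformin group and the lower oxymetholone values. The log2 difference from untreated mutants was 4.04 ± 0.96 (SE, edgeR adjusted p = 0.299) with oxymetholone, 3.47 ± 0.98 (SE, edgeR adjusted p = 0.688) with both and 1.99 ± 0.94 (SE, edgeR adjusted p = 0.873) with metformin. From wild type, oxymetholone differed by 2.66 ± 0.78 (SE, edgeR adjusted p = 0.487). Without combination 2 the difference with both drugs was 2.21.

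Bhlhe40 and Bhlhe41 encode E-box repressors also called DEC1 and DEC2. Bhlhe40 was 23.5, 46.0, 36.4 and 47.5 CPM in wild type, 17.6, 21.9 and 30.0 in untreated mutants, 28.7, 51.2 and 28.5 with metformin, 41.9, 34.1, 49.4, 69.7 and 67.8 with oxymetholone, and 31.6, 33.0 and 26.0 with both drugs. With oxymetholone all 5 livers lay above all untreated mutants, at a log2 difference of 1.18 ± 0.31 (SE, edgeR adjusted p = 0.401), and the range overlapped wild type. Untreated mutants differed from wild type by -0.73 ± 0.31 (SE, edgeR adjusted p = 0.973). Bhlhe41 was 1.84, 1.28, 0.573 and 2.47 CPM in wild type, 0.746, 1.75 and 1.65 in untreated mutants, 3.84, 3.40 and 1.74 with metformin, 2.48, 1.11, 7.28, 2.15 and 0.786 with oxymetholone, and 2.03, 2.04 and 0.964 with both drugs. Oxymetholone 3 was alone at the top of Bhlhe41, and no comparison of that gene had an unadjusted p under 0.05. Cipc, a CLOCK-interacting repressor, ranged from 15.2 CPM in combination 3 to 34.4 in oxymetholone 4, with no unadjusted p under 0.05.

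Summed over that arm in the edgeR fit, all 14 genes were higher with oxymetholone than in untreated mutants (median log2 difference 1.25, against 0.03 for all genes) and all 14 with metformin (1.03 against 0.04). In the authors' deposited table Nr1d1 was instead at -0.09 with oxymetholone and -0.10 with metformin. Bhlhe41 was there at 0.25 between untreated mutants and wild type. The rest of the arm had the same sign in both sources in these comparisons. With both drugs 13 of 14 were higher (0.80 against 0.00), Nr1d1 being the exception. In the genotype comparison 0 of 14 were higher in untreated mutants than in wild type (median -0.73 against -0.02). Against wild type, oxymetholone-treated mutants had 12 of 14 higher, with a median of 0.52 against 0.01. Of the 5 genes Arntl, Clock, Npas2, Nfil3 and Cry1, 0 were higher with oxymetholone (median -0.77), 1 with metformin (-0.86) and 1 with both drugs (-0.67). Without any 1 library, 13 or 14 of the arm's genes were higher with oxymetholone, and likewise with metformin, and 11 to 14 with both drugs.

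Outputs of the clock included genes of metabolism and the cell cycle. Wee1 encodes the kinase that holds back entry into mitosis and is a known E-box target in liver. Wee1 was 1.34, 4.31, 1.72 and 1.19 CPM in wild type, 1.17, 1.37 and 2.02 in untreated mutants, 3.58, 6.37 and 6.69 with metformin, 2.52, 7.94, 4.86, 5.27 and 18.6 with oxymetholone, and 4.06, 18.9 and 6.30 with both drugs. Every treated liver of every drug group exceeded every untreated mutant in Wee1, and among wild types only replicate 2 reached the treated range. Wee1 differed from untreated mutants on the log2 scale by 2.37 ± 0.67 (SE, edgeR adjusted p = 0.505) with oxymetholone, 1.87 ± 0.70 (SE, edgeR adjusted p = 0.705) with metformin and 2.67 ± 0.72 (SE, edgeR adjusted p = 0.648) with both, and 1.87 ± 0.58 (SE, edgeR adjusted p = 0.56) between oxymetholone and wild type. Without combination 2 the difference with both drugs was 1.77. Beside this, all 18 replication and mitosis genes of a list were higher with oxymetholone (median 1.20), as were 52.9% of all genes. All 18 were higher with metformin (median 1.35, against 53.9% of all genes) and 16 of 18 with both drugs (median 1.63, against 50.4%). At an unadjusted p under 0.05, 2 were higher with oxymetholone (2.77% of all genes), 3 with metformin (4.41%) and 5 with both drugs (3.58%). With both drugs, leaving out combination 3 took the log2 difference of Aurkb from 2.64 to 0.09, of Cdk1 from 2.65 to 0.70, of Mki67 from 1.92 to 0.43 and of Top2a from 2.02 to 0.49. With metformin, leaving out metformin 4 took Top2a from 1.96 to 0.96, Mki67 from 1.70 to 1.03 and Aurkb from 2.37 to 1.85. Levels were low in untreated mutants, with a mean of 0.186 CPM for Aurkb and 0.578 for Mki67. Of the 18 genes, 15 were lower in untreated mutants than in wild type. Whether the Wee1 difference moved with proliferation or with the clock was not tested.

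Noct encodes nocturnin, a rhythmic enzyme of lipid metabolism. Noct was 7.41, 4.88, 11.5 and 11.7 CPM in wild type, 1.60, 1.31 and 5.28 in untreated mutants, 29.6, 4.69 and 3.998 with metformin, 9.41, 9.05, 27.1, 16.7 and 42.3 with oxymetholone, and 8.12, 30.5 and 3.76 with both drugs. All 5 oxymetholone-treated livers exceeded all untreated mutants, while metformin 1 alone was high in its group. Noct differed on the log2 scale by 2.92 ± 0.87 (SE, edgeR adjusted p = 0.587) with oxymetholone, 2.20 ± 0.89 (SE, edgeR adjusted p = 0.778) with metformin and 2.36 ± 0.89 (SE, edgeR adjusted p = 0.851) with both. It was 0.66 with metformin without metformin 1, and 1.10 with both drugs without combination 2.

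Coq10b encodes a coenzyme Q binding protein of mitochondria. Coq10b was 24.7, 19.0, 21.0 and 19.7 CPM in wild type, 7.71, 16.2 and 20.7 in untreated mutants, 47.0, 15.1 and 17.4 with metformin, 22.3, 30.0, 28.5, 36.3 and 57.7 with oxymetholone, and 22.4, 109 and 28.2 with both drugs. Combination 2 was far above the rest, and all oxymetholone and combination livers exceeded all untreated mutants. The log2 difference was 1.23 ± 0.52 (SE, edgeR adjusted p = 0.877) with oxymetholone and 1.84 ± 0.57 (SE, edgeR adjusted p = 0.776) with both, where it was 0.77 without combination 2.

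Nampt encodes the rate-limiting enzyme of NAD salvage. Nampt was 65.6, 60.2, 70.7 and 48.5 CPM in wild type, 41.7, 58.0 and 82.6 in untreated mutants, 96.0, 42.4 and 118 with metformin, 51.1, 98.2, 34.6, 91.2 and 133 with oxymetholone, and 109, 198 and 138 with both drugs. All 3 combination livers exceeded all 4 wild types and all 3 untreated mutants. With both drugs the log2 difference was 1.29 ± 0.45 (SE, edgeR adjusted p = 0.806). Lonrf3, a member of a family of LON-domain RING finger proteins, went the other way with oxymetholone. Lonrf3 was 1.06, 0.854, 1.36 and 1.19 CPM in wild type, 1.49, 0.984 and 0.550 in untreated mutants, 0.789, 0.925 and 0.724 with metformin, 0.441, 0.742, 0.809, 0.771 and 0.731 with oxymetholone, and 1.19, 1.48 and 1.90 with both drugs. All 5 oxymetholone livers lay below all 4 wild types, and all 3 combination livers above all metformin livers. The log2 difference was -0.67 ± 0.31 (SE, edgeR adjusted p = 1) between oxymetholone and wild type and 0.91 ± 0.38 (SE, edgeR adjusted p = 0.999) between combination and metformin.

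Kinases, ligases and partners of the loop formed the last set. Csnk1d and Csnk1e encode casein kinases that mark PER for decay, Btrc and Fbxw11 the F-box proteins that then bind it, Nono and Timeless partners of PER and CRY, and Rora the activator of the ROR element. Csnk1e was 2.81, 5.23, 5.55 and 4.74 CPM in wild type, 4.48, 3.72 and 2.79 in untreated mutants, 3.74, 5.12 and 6.17 with metformin, 3.52, 4.82, 10.2, 5.07 and 7.88 with oxymetholone, and 3.17, 2.80 and 5.97 with both drugs. Csnk1e was highest in oxymetholone 3 and otherwise overlapped, with a log2 difference of 0.78 ± 0.37 (SE, edgeR adjusted p = 0.877) with oxymetholone, and 0.54 without oxymetholone 3. Csnk1d ranged from 13.1 to 44.0 CPM, Btrc from 5.43 to 14.4, Fbxw11 from 18.7 to 33.4, Timeless from 1.20 to 3.62, Nono from 26.5 to 68.8 and Rora from 21.0 to 52.0 across the 18 livers. None of these 6 had an unadjusted p under 0.05 in any comparison. For this set of 7 the median log2 difference was 0.04 with oxymetholone, 0.22 with metformin and -0.16 with both.

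**Figure D2:**
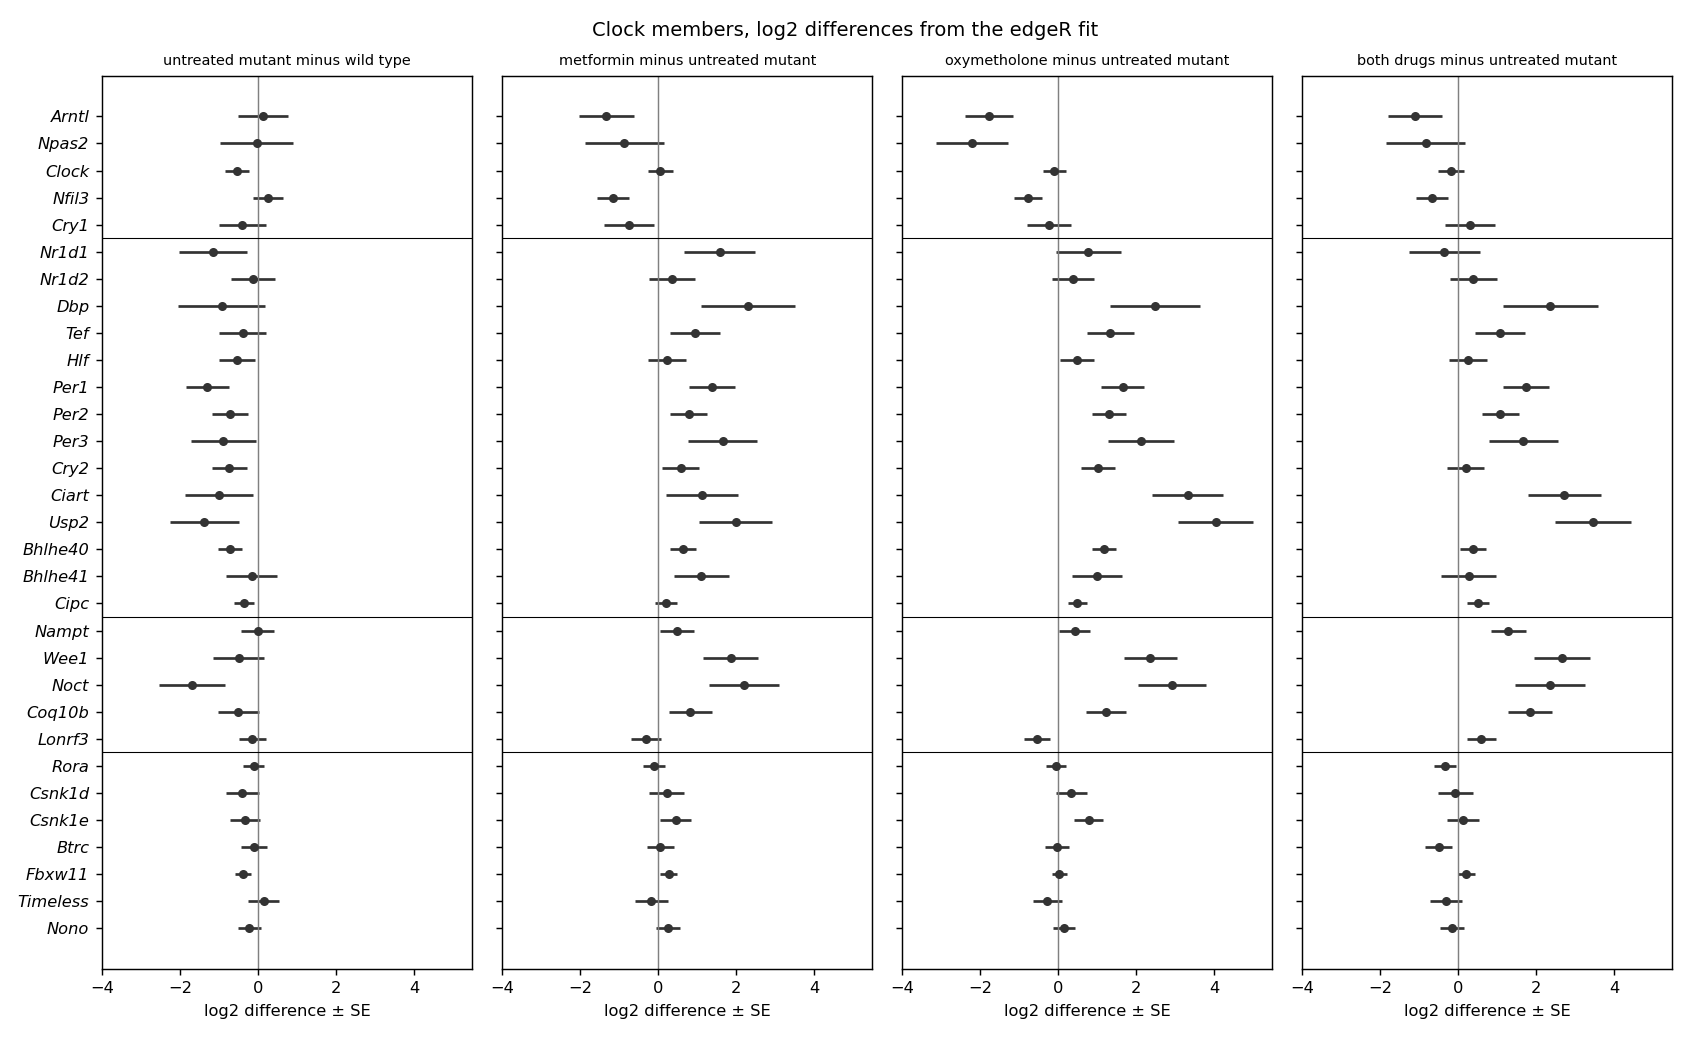
Log2 difference ± SE of the 31 clock genes from the edgeR fit, in 4 panels for untreated mutant minus wild type and for metformin, oxymetholone and both drugs minus untreated mutant. Lines part the ROR-element arm, the E-box and D-box arm, the outputs, and the kinases, ligases and partners; Usp2 at 4.04 and Ciart at 3.33 lie farthest right in the oxymetholone panel, and no gene passed an adjusted p of 0.05.

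The counts per comparison follow the order of the design. Between untreated mutants and wild type, 0 of 31 genes passed the adjusted threshold by edgeR or DESeq2 (0% of all genes by edgeR), 0 were higher at an unadjusted p under 0.05 (1.36% of all genes) and 2 were lower, Per1 and Bhlhe40 (1.22%). In 5 genes, Clock, Nr1d1, Cry2, Cipc and Hlf, all mutants lay below all wild types (3.82% of all genes), and in 0 genes above (2.5%). With oxymetholone against untreated mutants, 0 passed the adjusted threshold (0.0434% of all genes), and the 13 higher and 3 lower genes at an unadjusted p were given above. In 9 of them, Bhlhe40, Ciart, Per2, Wee1, Coq10b, Dbp, Usp2, Per3 and Noct, all oxymetholone livers lay above all untreated mutants (1.87% of all genes), and in 0 below (1.59%). The count of 13 was 7 without untreated mutant 3 and 8 without oxymetholone 3.

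With metformin 0 passed the adjusted threshold by edgeR or DESeq2 (0% of all genes by edgeR), 4 were higher at an unadjusted p under 0.05, Per1, Wee1, Usp2 and Noct (4.41%), and 1 was lower, Nfil3 (1.27%). In 6 genes, Nr1d1, Ciart, Wee1, Dbp, Usp2 and Per3, all 3 metformin livers lay above all 3 untreated mutants (3.94% of all genes), and in 1, Nfil3, below (3.32%). The count of 4 was 1 without untreated mutant 2 or without untreated mutant 3, and 2 without metformin 1. With both drugs 0 passed (0.0186% of all genes), 8 were higher at an unadjusted p, Nampt, Per1, Ciart, Per2, Wee1, Coq10b, Usp2 and Noct (3.58%), and 0 were lower (1.88%). All combination livers lay above all untreated mutants in 4 genes, Nampt, Wee1, Coq10b and Usp2 (4.71%), and below in 0 (3.95%). The count of 8 was 3 without combination 2, the liver at the top of Dbp minus Arntl.

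Oxymetholone on top of metformin, that is combination against metformin, gave 0 genes past the adjusted threshold by edgeR or DESeq2 (0% of all genes by edgeR), 1 higher at an unadjusted p, Lonrf3 (1.33%), and 0 lower (2.09%). Oxymetholone-treated mutants against wild type gave 0 past the adjusted threshold (0.0993% of all genes), 3 higher at an unadjusted p, Ciart, Wee1 and Usp2 (2.46%), and 4 lower, Clock, Lonrf3, Npas2 and Arntl (2.05%). In Clock and Lonrf3 all oxymetholone livers lay below all wild types (1.11% of all genes), and in 0 genes above (0.987%).

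The interaction of the drugs, the oxymetholone difference with metformin minus that without, gave 0 genes past the adjusted threshold by edgeR or DESeq2 (0% of all genes by edgeR). At an unadjusted p under 0.05 it was positive in 3, Lonrf3, Arntl and Nfil3 (0.993% of all genes), and negative in 4, Nr1d1, Cry2, Bhlhe40 and Noct (2%). Its value was 1.99 ± 0.94 (SE, edgeR adjusted p = 0.863) for Arntl, -2.71 ± 1.25 (SE, edgeR adjusted p = 0.863) for Nr1d1 and -2.77 ± 1.17 (SE, edgeR adjusted p = 0.863) for Noct. For Cry2 it was -1.41 ± 0.64 (SE, edgeR adjusted p = 0.863). Without metformin 1 the Noct value was -1.23. By limma-voom with quality weights the Nr1d1 value was -0.44, the Cry2 value -0.82 and the Arntl value 1.18. Without combination 3 the Arntl value was 1.27. Without metformin 3 the Nr1d1 value was -1.59 and the Cry2 value -0.91, without oxymetholone 3 the Nr1d1 value was -1.75, and with metformin 3 and combination 3 both left out they were -1.10 for Nr1d1 and -0.64 for Cry2. None of the clock genes in the authors' deposited table had an adjusted p under 0.05 in any of 7 comparisons. The lowest were 0.139 for Ciart with oxymetholone and 0.183 for Per1 with both drugs. Few genes of any kind passed there, 47 of 16115 with oxymetholone and 0 in each other comparison.

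Libraries could be set in order by the ratio of Dbp to Arntl, which peak at opposite times of day as background. On log2 CPM with a prior count of 2, Dbp minus Arntl ran from -4.34 in untreated mutant 2 to 6.69 in combination 2. The widest gap in that order parted 6 libraries, at -0.42 or below, from 12, at 1.91 or above. The 6 were 3 of 4 wild types, 2 of 3 untreated mutants and combination 3 (-2.76). All 3 metformin livers and all 5 oxymetholone livers were among the 12, at 2.05 to 5.06, and so were wild type 2 (3.14) and untreated mutant 4 (1.91), which had no drug. Both positions therefore occurred in wild type, in untreated mutants and with both drugs. Summed bile duct markers were 1474 CPM in untreated mutant 2 and 689 in combination 3 but 50.6 to 84.1 in the other 4 of the 6 libraries, and among the 12 they were 35.7 to 707 CPM, highest in metformin 3 (707) and oxymetholone 4 (427). Combination 2, at the high end, had the highest hepatocyte sum (89610 CPM). The part of cell makeup in this order was not tested.

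**Figure D3:**
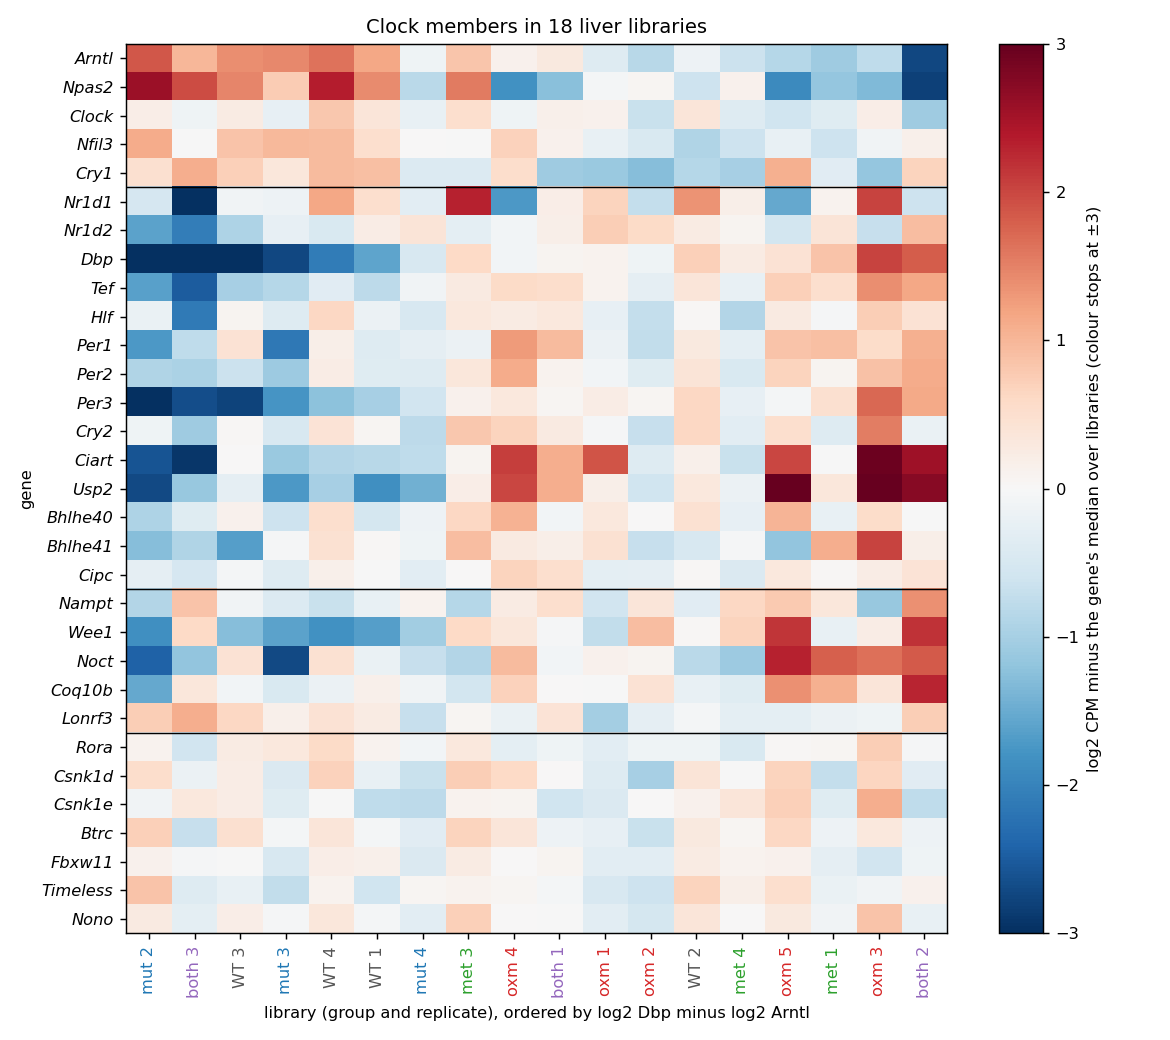
Log2 CPM of 31 clock genes (rows) in 18 liver libraries (columns, ordered by log2 Dbp minus log2 Arntl), each minus the gene's median over libraries, with colour stopping at ±3. Dbp and Arntl set the order; Per3, also blue in the 6 leftmost libraries, did not, and combination 3 stands among untreated livers and wild type 2 among treated livers.

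Across the 18 libraries Arntl was correlated with 15 other clock genes on log2 CPM, with permutation p-values adjusted by Benjamini-Hochberg over the 15 pairs. For Npas2 Pearson's r was 0.85 (permutation p = 1e-05, the smallest that 100000 permutations can give, adjusted 0.00015) and Spearman's rho 0.79 (permutation p = 0.00019, adjusted 0.00142). For Dbp r was -0.82 (permutation p = 3e-05, adjusted 0.00022) and rho -0.81 (permutation p = 0.00012, adjusted 0.00142). Per3 followed with r of -0.79 (permutation p = 9e-05, adjusted 0.00045) and rho of -0.75 (permutation p = 0.00035, adjusted 0.00175). In all, 11 of 15 passed an adjusted p of 0.05 by Pearson's r. Nfil3 (0.68) and Clock (0.73) were positive, and Tef (-0.71), Usp2 (-0.70), Ciart (-0.66), Nr1d2 (-0.62), Per2 (-0.61) and Per1 (-0.56) negative. Nr1d1 (0.04), Cry1 (0.37), Hlf (-0.15) and Bhlhe41 (-0.30) did not pass.

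Untreated mutant 2 and combination 2 lay farthest from the median of Arntl. Without them r was 0.79 for Npas2, -0.79 for Dbp, -0.75 for Per3, 0.80 for Nfil3, 0.61 for Clock, -0.62 for Tef and -0.57 for Usp2, and these 7 passed again, as did Cry1 at 0.61. Ciart (-0.51), Nr1d2 (-0.44), Per2 (-0.42) and Per1 (-0.38) then did not pass and kept their sign. Leaving out the extremes of Arntl narrows its range and leaves 16 libraries. With each group's mean taken out and permutation within groups, 3 of 15 passed, Npas2 (0.80), Dbp (-0.78) and Nfil3 (0.59). In pairs that no longer passed r was 0.71 for Clock, -0.72 for Per3, -0.68 for Nr1d2, -0.66 for Tef, -0.55 for Ciart, -0.53 for Usp2, -0.49 for Per2 and -0.46 for Per1. Pearson's r thus moved little in Clock, Per3, Nr1d2 and Tef. Spearman's rho went from 0.65 to 0.67 for Clock and from -0.57 to -0.62 for Nr1d2. It weakened from -0.75 to -0.54 for Per3 and from -0.73 to -0.50 for Tef. Without metformin 3 and combination 3, 11 of 15 passed. By Spearman's rho 10 of 15 passed across all libraries and 1, Nfil3, with group means taken out.

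Nr1d1 and Cry1 did not pass in the correlation with Arntl over the 18 libraries. Log2 Nr1d1 minus Per2 was below 0 in 4 libraries, -1.93 in oxymetholone 4, -1.31 in oxymetholone 5, -0.86 in combination 2 and -1.39 in combination 3, and it was 0.52 to 2.83 in the other 14. Those 4 libraries were also the only treated livers with Cry1 above 10 CPM, namely 11.1, 15.98, 12.1 and 16.3. The other 7 treated livers were at 3.15 to 6.10. Among untreated livers, Cry1 was also above 10 CPM in wild type 1, 3 and 4 (14.3, 12.6 and 14.9) and untreated mutant 2 (10.7). In these, log2 Nr1d1 minus Per2 was 1.72, 1.41, 1.80 and 1.25, so high Cry1 did not go with a low ratio there. The 4 libraries below 0 lay at different places in the order by Dbp and Arntl, combination 3 near the low end and combination 2 at the high end. Per2 was 13.1, 9.62 and 13.2 CPM in oxymetholone 4, oxymetholone 5 and combination 2. Oxymetholone 3 also had high Per2, at 11.1 CPM, but its Nr1d1 was 45.0 CPM and its ratio 2.01. In combination 3 Per2 was only 3.15 CPM, and Nr1d1, at 1.15, was the lowest of the 18. As background, Nr1d1 peaks before Per2 and is at its trough when Per2 and then Cry1 are high. The part of the hour of collection in this ratio was not tested. Oxymetholone 4 and combination 3 also had high macrophage marker sums, 469 and 500.4 CPM, and oxymetholone 5 had 431 CPM, but combination 2 had 65.6 CPM. None of the untreated livers had such a ratio.

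**Figure D4:**
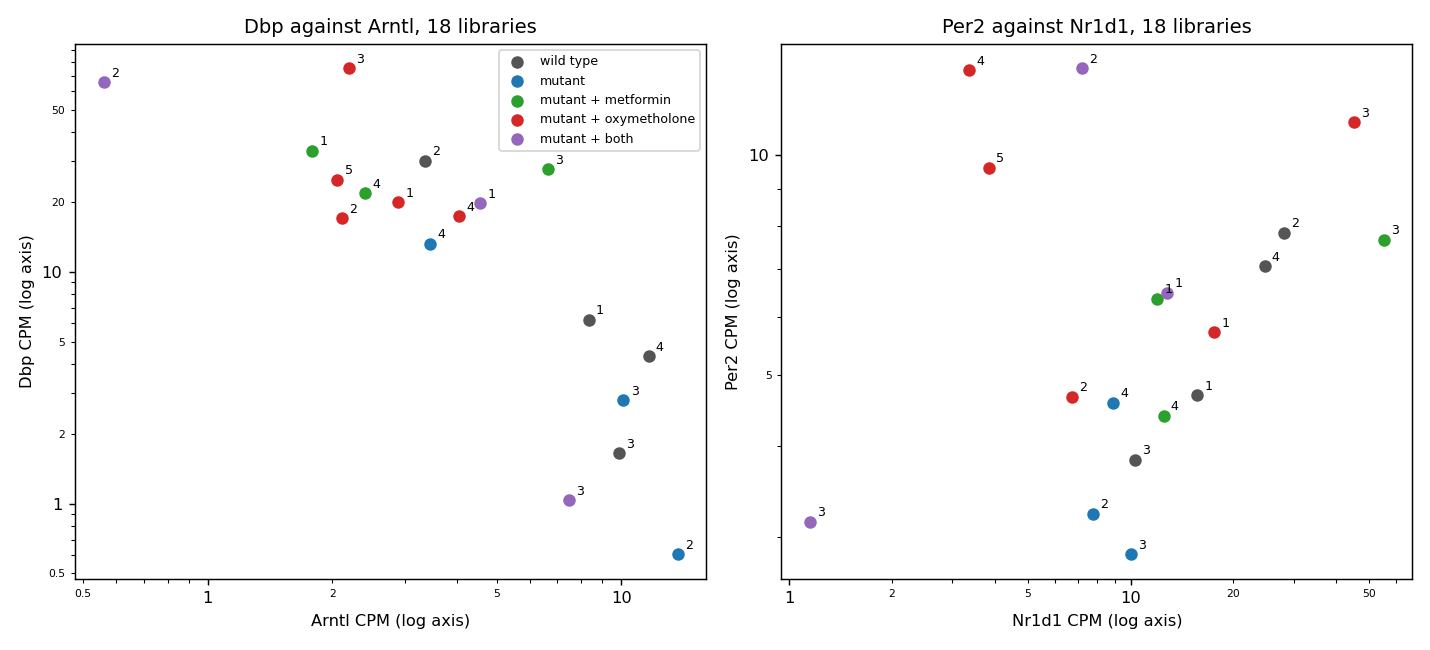
Left, Dbp against Arntl and right, Per2 against Nr1d1, in CPM on log axes, 1 point per liver library with its replicate number, coloured by group. On the left the points run from combination 2 (0.561 and 65.6 CPM) to untreated mutant 2 (13.7 and 0.604); on the right oxymetholone 4 and 5 and combination 2 and 3 lie to the left of the other 14 libraries for their Per2 level.

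Spread within groups was wide for several of the rhythmic genes, but not for all. The biological coefficient of variation from edgeR, the part of the relative spread beyond counting error, was 0.92 for Dbp, higher than in 99.1% of genes at a like level, 0.73 for Nr1d1 (98.1%), 0.72 for Usp2 (97.6%), 0.69 for Noct (97.5%), 0.71 for Per3 (95.6%) and 0.53 for Tef (95.2%). It was above the 90th percentile in 13 of 31 genes. It was lower in rank for Per1 (81.0%), Nfil3 (77.2%), Per2 (69.4%), Bhlhe40 (59.2%) and Clock (58.4%). Lonrf3 (7.36%), Fbxw11 (19.1%) and Timeless (30.3%) were among the 7 below the median. The lowest count of any clock gene in any library was 2 reads, in Npas2.

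Genes whose pattern over the 18 libraries was most like that of Arntl were named from 10221 genes with a mean log2 CPM of at least 1, leaving out the clock genes. Among the highest r were those of Tab2 (0.87), Mad2l2 (0.86), Pter (0.85) and Caprin1 (0.84), and the lowest belonged to Pcsk4 (-0.81), Ccdc85b (-0.80), Lonrf1 (-0.79), Aqp11 (-0.78) and Nmrk1 (-0.76). Nmrk1 encodes a kinase of NAD synthesis and ranged from 7.59 to 82.2 CPM. With group means taken out, r was 0.78 for Tab2 and -0.85 for Nmrk1.

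Of 28 other clock regulators, such as the kinases, ligases and cofactors of the loop, 24 were in the table. None of the 24 had an unadjusted p under 0.05 with oxymetholone, metformin or both by edgeR, and their median log2 differences were 0.06, 0.09 and -0.03. Among 30 other rhythmic liver outputs, 7 were higher and 3 lower with oxymetholone at that p (2.77% and 2.03% of all genes). With both drugs 6 were higher and 2 lower (3.58% and 1.88%). With metformin 0 were higher and 1 lower at that p (4.41% and 1.27%). Their median log2 difference with metformin was -0.13, against 0.04 for all genes. None of the 30 passed the adjusted threshold by edgeR. By DESeq2, Cyp2a5 (adjusted p = 0.00167), Lpin1 (0.019) and Lpin2 (0.0312) passed it with oxymetholone. Cyp2a5, a cytochrome P450 that DBP-family factors act on, was 157 ± 113 CPM (SD, n = 3) in untreated mutants, 1955 ± 2033 (n = 5) with oxymetholone and 1533 ± 749.7 (n = 3) with both. Its log2 difference with oxymetholone was 3.64 ± 0.99 (SE, edgeR adjusted p = 0.461). Lpin1, a phosphatidate phosphatase, was 16.1 ± 6.60 CPM in untreated mutants and 67.2 ± 38.7 with oxymetholone (log2 difference 2.06 ± 0.55, SE, edgeR adjusted p = 0.451).

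Lists for body temperature, feeding and glucocorticoids, inputs that shift the liver clock, were read beside these. Hspa8, a heat shock chaperone, was 366 ± 80.6 CPM (SD, n = 3) in untreated mutants, 594 ± 61.9 (n = 5) with oxymetholone and 628 ± 49.9 (n = 3) with both, at log2 differences of 0.70 ± 0.20 and 0.78 ± 0.22 (SE, edgeR adjusted p = 0.495 and 0.68). By DESeq2 the adjusted p of Hspa8 was 0.0047 with oxymetholone and 0.0127 with both. Cirbp, a cold-induced RNA-binding protein, was 20.2 ± 2.92 CPM in untreated mutants and 13.2 ± 2.93 with oxymetholone, a log2 difference of -0.61 ± 0.23 (edgeR adjusted p = 0.877). Of 12 such genes 2 were higher and 1 lower with oxymetholone at an unadjusted p under 0.05, beside 2.77% and 2.03% of all genes. Of 15 glucocorticoid response genes 4 were higher and 0 lower with oxymetholone at that p, beside 2.77% and 2.03% of all genes. Among these 4 was Fkbp5, at 9.03 ± 4.48 CPM in untreated mutants and 49.2 ± 36.5 with oxymetholone. Of 16 fasting and feeding genes 1 was higher with oxymetholone, Pck1, an enzyme of glucose synthesis, and 1 lower, Sesn1, beside 2.77% and 2.03% of all genes. Pck1 was 952 ± 266 CPM (SD, n = 4) in wild type, 325 ± 123 (n = 3) in untreated mutants and 952 ± 410 (n = 5) with oxymetholone. With metformin, 1 glucocorticoid response gene was higher and 2 were lower at an unadjusted p under 0.05, beside 4.41% and 1.27% of all genes. The counts with metformin were 0 and 0 for body temperature and 0 and 1 for feeding. No gene of these lists passed the adjusted threshold by edgeR, and their part in the clock gene levels was not tested.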

How the data were processed

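RNA of 20 liver samples was labelled in GEO, and 18 had columns in the table used here. Per the labels' protocols, RNA was isolated with a Qiagen RNEasy kit and libraries were made by Genewiz with its standard method. Per the submitters' processing notes, the genome build was GRCm39. The aligner, counter and strand setting were not given in the sources read here. In 1 table the authors deposited raw counts of 16115 genes in each library, per the file headers. Further columns, also deposited, give a CPM signal equal to the counts scaled by TMM factors, and others give log2 residuals that were not used here. Log2 fold changes with p-values for 7 comparisons were deposited too, from a test that is not named. 

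From the counts, levels in CPM and all tests were computed with edgeR 4.0.16 in R 4.3.3: TMM scaling (factors 0.798 to 1.31), filterByExpr, which removed no gene, and a quasi-likelihood model (robust option) in which each group had its own mean, fitted to 18 libraries together. P-values were adjusted over 16115 genes by Benjamini-Hochberg, with a threshold of 0.05. Correlations used log2 CPM with a prior count of 2 and 100000 permutations. The procedure was tested on simulated counts. Alternatives were DESeq2 1.42.0, its size factors in edgeR, no filter, only the 12803 genes with a mean CPM of 1 or more, a fit of only the groups compared, limma-voom (limma 3.58.1) with sample weights, each library left out in turn, and metformin 3 and combination 3 left out together. Depth was 20.2 to 32.7 M counts.

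The clock genes and all gene lists were chosen with earlier results of these data known. Values per library are given for the oscillator genes and for other clock genes with an unadjusted p under 0.05 in a comparison, and other genes by their range. From other lists the genes named had an unadjusted p under 0.05. Replicate numbers follow the order of the sample records and pair no samples. Promoter sequences are from RefSeq on GRCm38.p6, and overlaps of exons from GENCODE on that build. A gene of the list most like Arntl is not reported here.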

Additional observations from a re-analysis of the deposited data

Results flagged for a closer look

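In 62 sets of libraries of 4 or 5, 1 gene in 1 group each, 8 held a lone library far from the others. Chance gives about 1 in 20 for independent sets of normally distributed values. The values here were CPM without a log and the genes vary together, so that rate is only a rough guide. Oxymetholone 3 was the lone library in 4 of the 8. It stood at 75.4 CPM in Dbp against 17.0 to 24.97 in the other oxymetholone livers, at 16.1 in Per3 against 4.71 to 6.04, at 52.0 in Rora against 25.03 to 31.9 and at 7.28 in Bhlhe41 against 0.786 to 2.48. Wild type 2 was the lone library in 2, at 30.1 CPM in Dbp against 1.65 to 6.21 in the other wild types and at 4.31 in Wee1 against 1.19 to 1.72. Oxymetholone 4 stood at 39.4 CPM in Nfil3 against 17.6 to 22.4, and oxymetholone 1 was lowest in Lonrf3, at 0.441 CPM against 0.731 to 0.809.

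In 3 genes every oxymetholone liver lay to 1 side of the untreated mutants' mean and every combination liver to the opposite side of the metformin mean. Only the 31 clock genes were put to this rule, so the share of all genes that would meet it is not known. Nfil3 and Lonrf3 were below with oxymetholone alone and above when it was added to metformin, and Bhlhe40 was above and then below. The interaction was 1.25 ± 0.54 (SE) on the log2 scale for Nfil3, -1.44 ± 0.45 for Bhlhe40 and 1.44 ± 0.50 for Lonrf3, each with an edgeR adjusted p of 0.863, so none passed.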

How the results depend on the processing

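No clock gene was called by edgeR under any alternative, and DESeq2 called 5 with oxymetholone, 2 with both drugs and 1 between oxymetholone and wild type, the cause of which was not tested. For DESeq2 the share of all genes called is not given here. Leaving out 1 library at a time gave 7 to 14 clock genes higher at an unadjusted p under 0.05 with oxymetholone, 1 to 6 with metformin and 3 to 12 with both drugs, and limma-voom gave 14 with both drugs. These counts were alternatives chosen after seeing the data. Of 15 correlations 3 passed with group means taken out, against 11, although Pearson's r of Clock (0.71), Per3 (-0.72), Nr1d2 (-0.68) and Tef (-0.66) moved little. Spearman's rho was then 0.67 for Clock and -0.62 for Nr1d2, but weakened to -0.54 for Per3 and -0.50 for Tef. Of 1188 recomputed log2 differences 0 reversed and 13 newly passed the adjusted threshold, all by DESeq2. No paired analysis was possible because the labels carry no replicate numbers. Groups of 3 to 5 livers with a wide spread in Dbp, Usp2 and Noct limit what the tests can show, depth was 20.2 to 32.7 M counts, and the hour of collection is not in the labels.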
